A study of Neurospora crassa with 94 samples.

Results

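The genes around the mating-type locus of Neurospora crassa, a filamentous fungus, were followed in the RNA-seq libraries of the series. Members were all rows with locus tags from NCU01940 to NCU02080 by number, without the mating-type A genes NCU01958 to NCU01960 and without rid-1 (NCU02034), and they came to 128 of 10397 genes. The range was chosen because genes that were lower in the set-7 deletion gather in it, so the members were chosen by the values of set-7 against WT, which are given here only as a description. Of the 141 tag numbers in the range, 132 had a row in both RNA tables. In the gene order of the reference assembly NC12 all members lay on chromosome I, 112 of them on the NCU02080 side of matA-1 and 16 on the other side. A symbol was known for 20 members, and 36 members overlapped a neighbouring gene in NC12, so that their reads are uncertain, since no source used here gives the strand setting of the counting. Among those named below these are un-16 (NCU01949), NCU01955, eat-5 (NCU01962), eat-6 (NCU01963), NCU01969, NCU01970, NCU01976, NCU01981, NCU01982, NCU01984, NCU01994, NCU02005, ada-2 (NCU02017), NCU02057, NCU02058, mdm12 (NCU02067) and NCU02068.

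All RNA came from mycelial cultures in constant light. The study set deletions of the PRC2 gene set-7 and of ISWI remodeler genes against wild type (WT). Series 111 held WT, acf, iaf-1 and iaf-2, and series 112 held set-7, acf, the triple mutant acf iaf-1 iaf-2 and its own WT, with 3 libraries per group. Series 118 held WT and isw, the triple mutant, and the double mutants acf iaf-2 and acf iaf-1, all in 3 libraries per genotype. A further double mutant, iaf-1 iaf-2, had 2 libraries there. The numbers are those that open the library labels. Nothing in the labels says that the libraries of a group came from separate cultures, so the p-values cover the spread among the libraries at hand and that spread may be technical. The labels give no mating type for any strain and do not say which part of a gene was removed or how many isolates stand behind a genotype.

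Neurospora has a single mating-type locus, which holds either the mat A or the mat a form; the forms are unlike in sequence and are called idiomorphs. Genes close to the locus are inherited together with it, so strains that differ in mating type can also differ in the alleles of its neighbours. The complex PRC2 marks repressed genes by histone H3 methylation, and SET-7 is its enzyme. ISWI is an ATPase that slides nucleosomes and works with partner proteins such as ACF.

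Library totals were 5332503 to 9021398 reads for series 111. They were 5652592 to 22582163 for series 112, and 11711993 to 21973649 for series 118. Levels are CPM (reads scaled to library size) in series 111 and 112 and TPM (also scaled for gene length) in series 118, and the tables were normalized separately. The edgeR tests apply further scaling factors (TMM), so ratios of CPM and edgeR fold changes can differ. In each group of series 111, 1 pair of libraries was close to counting noise (chi-square per degree of freedom of 1.53 to 1.93), while WT replicate 2 of that series differed from its partners by 71.7 and 68.7. The widest pair within a group was that of iaf-1 iaf-2 in series 118, at 127, and that group had no other library. The iaf-1 gene had no read in the libraries labelled iaf-1, iaf-2 had 2 reads in those labelled iaf-2, and the isw libraries held 2.12 TPM of isw where WT held 33.0. Reads of acf went against the label, with 188 CPM in the libraries labelled acf against 43.1 in WT of series 111 and 74.3 against 30.1 in series 112, so acf is used below only as the name of the label. The set-7 gene still had 4.42 CPM in the set-7 libraries against 7.29 in WT. Of the hyphal markers, hex-1, chs-1, gel-1 and act were in the tables and summed to 2000 to 9520 CPM per library. The 6 conidial markers summed to 58.2 to 1400 CPM and 6 markers of sexual tissue to 62.8 to 1600 CPM.

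Most members were expressed. The median of the members' mean levels was 39.7 CPM in series 111 (25.1 over all genes), 28.6 CPM in series 112 (19.4) and 24.6 TPM in series 118 (18.9). The highest was tef-1 (NCU02003), which encodes translation elongation factor 1-alpha, with a mean over libraries of 9820 CPM, 8800 CPM and 7590 TPM in the 3 series. At the low end, 14 members averaged under 1 CPM in series 111, 3 of them without a read, and 6 averaged under 1 TPM in series 118. After the filters on low values, 114 members were tested in series 111, 122 in series 112 and 126 in series 118. Of the 126 tested in at least 1 series, 60 were called at least 2-fold in 1 or more of the 11 comparisons with WT, where 52.1% of all genes tested were, and 66 in none. A gene was called at a Benjamini-Hochberg adjusted p under 0.05 over all genes tested.

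matA-1, a mat A regulator gene and no member, was read first as the marker of mating type. Its reads were 368 over the 3 WT libraries of series 111, with 19.2, 13.5 and 19.4 CPM, against 0 in acf, 0 in iaf-1 and 1 in iaf-2. In series 112 the WT libraries held 51 reads, with 0.898, 1.18 and 3.35 CPM, against 0 in set-7, 2 in acf and 0 in the triple mutant. The WT level thus differed between these series, and every mutant group of both was at or near 0.

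Series 118 was unlike the other series. Its 3 acf iaf-1 libraries stood at 58.5, 43.6 and 40.6 TPM of matA-1 (1578 reads) and its WT libraries at 0.533, 0.84 and 0.786 TPM (21 reads). The groups isw, acf iaf-2 and iaf-1 iaf-2 had no read, which is at least 7.58-fold, 8.38-fold and 6.35-fold below WT over a floor of 3 reads per group, and the triple mutant had 3 reads (6.92-fold below WT, 95% counting interval 2.07 to 36.2). ccg-4, the pheromone gene of mat A strains, moved with acf iaf-1: it averaged 24.3 CPM there and at most 0.357 CPM in every other group of the 3 series. Groups without matA-1 reads are described below only by their labels.

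No member met the rule set for following matA-1 in series 118. The rule puts WT with acf iaf-1, although WT held 21 matA-1 reads and acf iaf-1 1578. Of the 126 members tested, 0 lay in all libraries of isw, acf iaf-2, iaf-1 iaf-2 and the triple mutant below all libraries of WT and acf iaf-1. The same held for 14 of 9339 genes overall (0.15%), so a count of 0 is near the background and nothing is read from it. Members that set acf iaf-1 alone apart from all other groups were not counted. In the opposite direction 2 members (1.59%), NCU01968 and NCU01969, lay in every library of those 4 groups above every WT and acf iaf-1 library. The share over all genes was 1.08%, so this count is near the background, and the 2 genes are described singly below. They lie 10 and 11 genes from matA-1. NCU01968 was also called at least 2-fold higher by limma in all 4 groups against WT and against acf iaf-1, which held for 7 genes, or 0.075%.

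The 3 WT libraries of series 118 held 33.7, 27.6 and 26.1 TPM of NCU01968 and the acf iaf-1 libraries 18.9, 21.8 and 19.0 TPM. The triple mutant held 224, 240 and 215 TPM, isw 94.4, 82.4 and 92.1 TPM, acf iaf-2 69.0, 96.1 and 70.5 TPM, and the iaf-1 iaf-2 libraries 48.6 and 80.3 TPM. The groups with at most 3 matA-1 reads were thus higher than WT, and acf iaf-1 was lowest. Against acf iaf-1 the log2 fold change of NCU01968 on the log2(TPM + 1) scale was 3.45 ± 0.16 (SE) in the triple mutant, 2.12 ± 0.16 in isw, 1.92 ± 0.16 in acf iaf-2 and, for the iaf-1 iaf-2 libraries, 1.61 ± 0.18 (limma adjusted p between 6.37e-11 and 5e-06). NCU01969 averaged 77.2, 58.6, 42.9 and 28.1 TPM in the same 4 groups against 21.8 in WT and 13.9 in acf iaf-1. Its rise over WT was not called in iaf-1 iaf-2 (limma adjusted p = 0.11).

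The other series did not show the same order. In series 111, where WT had matA-1 reads and the mutants had almost none, NCU01968 held 91.7, 54.9 and 90.0 CPM in WT, 38.4, 44.1 and 37.9 in acf, 121, 96.1 and 124 in iaf-1 and 63.7, 65.9 and 151 in iaf-2. WT lay among the mutants, and no contrast with WT was called (edgeR adjusted p between 0.0663 and 0.586). NCU01969 was lower, not higher, in acf of series 111 (13.4 ± 2.10 CPM there and 39.0 ± 15.3 CPM in WT, SD, n = 3; log2 fold change by edgeR -1.25, adjusted p = 0.00113). In series 112 every mutant library lay above every WT library for NCU01969, at 27.1 to 54.9 CPM against 23.0 to 24.9 CPM. NCU01969 overlaps NCU01970 in NC12.

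**Figure D1:**
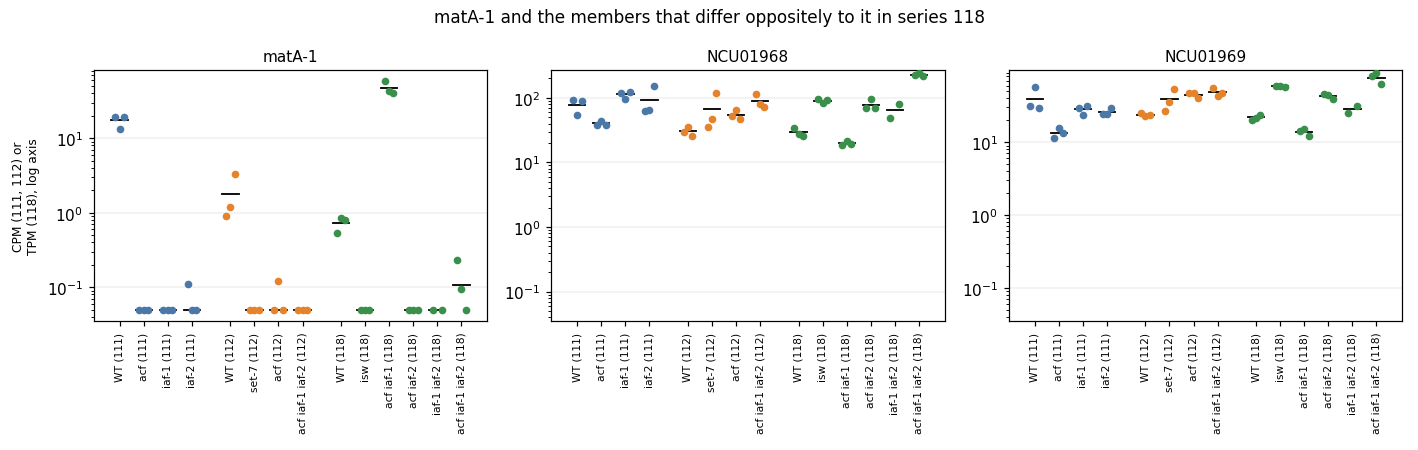
Level of matA-1, NCU01968 and NCU01969 in each of the 41 libraries (points) with group means (bars), on log axes, CPM for series 111 and 112 and TPM for series 118; values under 0.05 are drawn at 0.05. In series 118 the acf iaf-1 libraries are highest for matA-1 (40.6 to 58.5 TPM) and lowest for NCU01968 (18.9 to 21.8 TPM), while in series 111 the WT libraries of NCU01968 lie among the mutants.

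Against WT of series 112 the set-7 libraries had 26 of 122 tested members called, 18 lower and 8 higher, where 14.1% of all genes were called, 6.72% lower and 7.4% higher. At least 2-fold, 8 members were lower and 1 was higher, beside 0.789% and 3.01% of all genes. The count of 26 members called at any fold fell to 9, with 8 lower and 1 higher, when only the groups compared were in the fit. Without WT replicate 2 it fell to 13. These counts come from the contrast that chose the range, so nothing is read from them. The 8 members were NCU02071, NCU02061, NCU02058, NCU02051, NCU02042, NCU02040, NCU02022 and NCU01957. None of them carries a symbol, and their products are not named in the sources used here.

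Their levels in series 112 fell into separate ranges. NCU02022 held 15.1, 16.0 and 10.8 CPM in WT and 1.95, 0.801 and 1.42 CPM in set-7, 10.3-fold lower. NCU01957 held 15.5, 11.9 and 11.5 CPM against 1.59, 1.31 and 1.42 CPM, 8.72-fold lower, and it is the member closest to matA-1 on its side. NCU02061 held 6.80, 13.1 and 10.5 CPM against 0.531, 1.31 and 1.28 CPM, 8.36-fold lower. In these 3 genes no set-7 library reached a WT library. NCU02071 was 5.05-fold lower, NCU02051 3.62-fold, NCU02058 2.24-fold and NCU02042 2.19-fold, and NCU02042 overlapped between the groups. NCU02040 had 10 reads in WT and none in set-7.

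The 1 member at least 2-fold higher was NCU01968, and it rested on 1 library: set-7 held 35.4, 47.7 and 118 CPM against 29.5, 36 and 25.6 CPM in WT, and without set-7 replicate 3 its log2 fold change went from 1.22 to 0.57. No members lower at least 2-fold were immediate neighbours, although some lay a few genes apart. In gene order NCU02071 lay 118 genes from matA-1, NCU02061 106, NCU02058 103, NCU02051 95, NCU02042 87, NCU02040 85 and NCU02022 66, with NCU01957 2 genes away on the other side. Of the 107 tested members on the NCU02080 side 7 were lower at least 2-fold, and of the 15 on the other side 1. Among the 30 neighbours beyond each end 0 of 24 and 0 of 27 tested genes were lower at least 2-fold. The range was chosen from this contrast, so nothing is read from the difference between its inside and its outside.

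**Figure D2:**
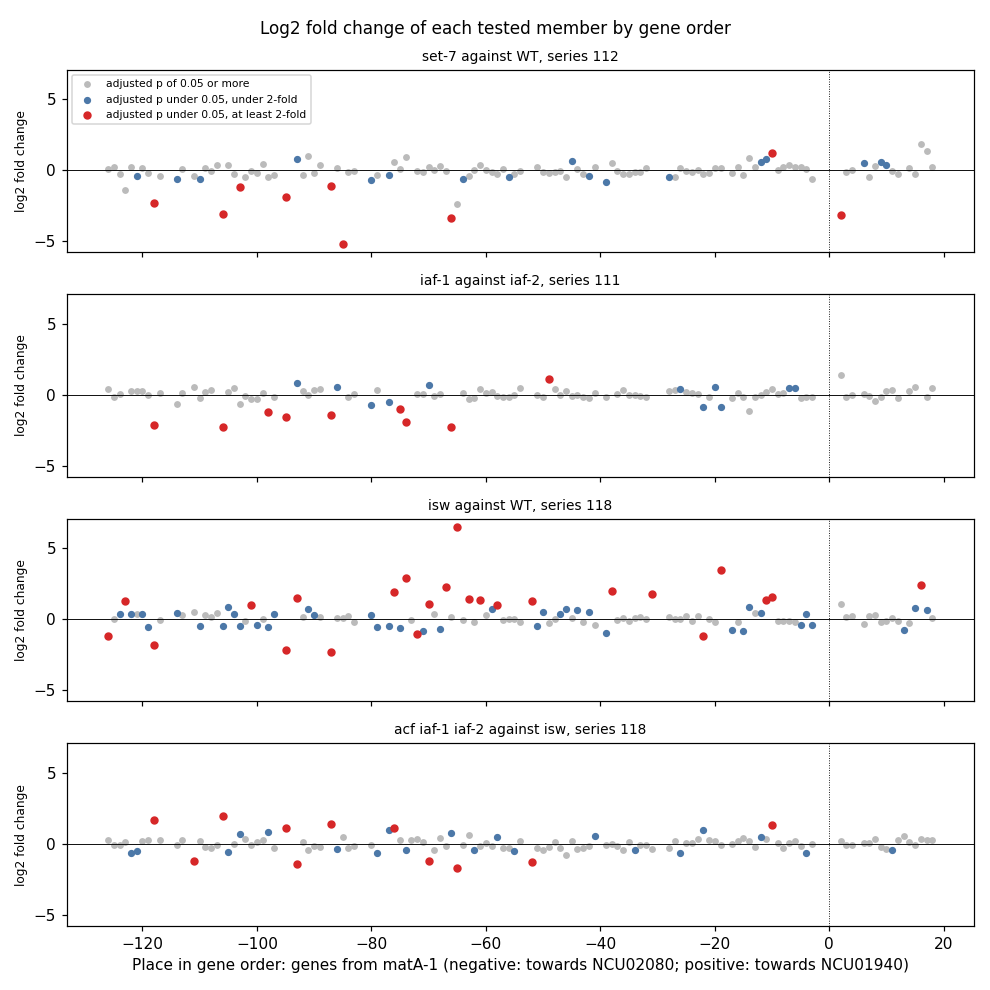
Log2 fold change of each tested member (points) by its place in gene order from matA-1 (dotted line), for set-7 against WT, iaf-1 against iaf-2, isw against WT and acf iaf-1 iaf-2 against isw; red points are called and at least 2-fold. The lowest points in set-7 include NCU02022 at -3.36 and NCU02061 at -3.06, with NCU01957, 2 genes from matA-1, between them in value. They stand beside NCU02040, which had no set-7 read, and are spread over the range. NCU02061, NCU02071, NCU02051 and NCU02042 lie above 1 in the triple mutant against isw.

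At the limits of the range the set-7 contrast was near 0 at the NCU02080 end and mixed at the NCU01940 end. The outermost members NCU02080, NCU02079 and NCU02078 had log2 fold changes of 0.10, 0.23 and -0.26, and NCU14006 just outside had -0.36. At the other end ptk-2 (NCU01940), a protein kinase gene, had 0.19 and NCU01939 just outside -0.02. NCU01943 and NCU01942, which with ptk-2 are the outermost members at that end, were not near 0 but had 1.85 and 1.38, neither of them called. Next to the left-out mating-type genes NCU01961 had -0.62, eat-5 0.08 and eat-6 0.24 on one side, and NCU01957, eat-2 and NCU01955 had -3.12, -0.16 and -0.02 on the other. NCU14009, which lies between matA-1 and NCU01957 in NC12 and has a tag outside the number range, had -1.47.

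Series 111 gave independent libraries for these members, and there iaf-1 and iaf-2 could be set side by side, both of them with 0 or 1 reads of matA-1. NCU02022 held 13.6, 12.0 and 13.2 CPM in WT and 12.1, 12.6 and 11.4 in iaf-2, but 1.50, 2.51 and 2.52 in iaf-1 and 1.74, 1.47 and 1.21 in acf. The iaf-2 libraries lay at the WT level and the other mutants lay below all of them. NCU02022 was 4.93-fold lower in iaf-1 than in iaf-2 (edgeR log2 fold change -2.30 ± 0.19 SE, adjusted p = 3.21e-05) and 5.34-fold lower than in WT (adjusted p = 9.48e-06), while iaf-2 against WT was -0.12 on the log2 scale (adjusted p = 0.635). The 3 mutants, alike in matA-1, thus differed at NCU02022.

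NCU02061 fell in all 3 mutants of series 111, to different depths. It held 17.3, 14.5 and 14.8 CPM in WT, 8.20, 9.54 and 10.0 in iaf-2, 5.56, 4.94 and 3.76 in acf and 1.69, 1.31 and 2.24 in iaf-1. No group overlapped another, and iaf-1 was lowest (8.24-fold below WT, edgeR adjusted p = 4.66e-06; 4.88-fold below iaf-2, adjusted p = 0.000127). The levels of NCU02071 lay on opposite sides of WT in the iaf single mutants. They were 7.98, 5.85 and 5.45 CPM in iaf-2, 3.19, 3.07 and 2.49 in WT and 1.13, 1.67 and 1.12 in iaf-1. The fall of NCU02071 in iaf-1 against WT was not called (2.02-fold, edgeR adjusted p = 0.0538). The rise of NCU02071 in iaf-2 (2.18-fold, edgeR adjusted p = 0.0183) was lost without WT replicate 1 (adjusted p = 0.056), WT replicate 3 (0.0706) or iaf-2 replicate 1 (0.0821).

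NCU02051 and NCU02042 were lower in iaf-1 as well. NCU02051 held 24.0, 43.0 and 27.3 CPM in iaf-1 against 79.4, 90.4 and 78.2 in WT, 99.2, 100 and 101 in iaf-2 and 87.3, 80.6 and 93.7 in acf. In CPM the iaf-1 libraries lay below all others, WT and acf overlapped, and iaf-2 lay above both. The order of acf and iaf-2 depends on the scaling. With the TMM factors the log2 fold change against WT was 0.379 in acf and 0.263 in iaf-2 (edgeR adjusted p = 0.0903 and 0.345). NCU02042 held 2.44, 2.03 and 2.94 CPM in iaf-1 against 14.0, 8.63 and 11.3 in WT and 7.43, 5.85 and 8.18 in iaf-2 (4.25-fold below WT, edgeR adjusted p = 0.000202).

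Counted over the list, 5 of the 7 tested members of the set-7 list at least 2-fold were called lower in iaf-1 than in iaf-2, with a median log2 fold change of -1.54 beside 0.00 over all genes. In that comparison 20 of 114 members were called, where 8.38% of all genes were; 12 were lower (3.22% of all genes) and 8 higher (5.15%). At least 2-fold lower were 8 members (1.07% of all genes), the 5 above with NCU02030, mus-42 and NCU02031, and 1 was higher (1.45%), NCU02005, which lost its call in 5 of the 6 fits without 1 library (adjusted p between 0.0767 and 0.157) and with close pairs summed (0.369). With the close library pairs summed only NCU02022 and NCU02061 remained called (adjusted p = 0.0156 and 0.0247), and leaving out 1 replicate at a time gave 6 to 20 members, with the lowest count without iaf-2 replicate 1.

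Counts against WT in series 111 were close to the background or above it. In bulk RNA, fewer cells of a type and less RNA per cell cannot be told apart. In iaf-1 45 members were called (28.8% of all genes), 24 of them lower (13%) and 21 higher (15.9%). At least 2-fold there were 10 (8.39%), 8 lower (3.41%) and 2 higher (4.98%). In iaf-2 25 members were called (19.6%), 16 lower (9.48%) and 9 higher (10.1%), and at least 2-fold 4 (4.67%), 2 in each direction (2.29% higher, 2.37% lower), and in acf 76 (66%). With close pairs summed the counts were 11 for iaf-1, 0 for iaf-2 and 59 for acf, and over all genes iaf-2 then had 4 calls by edgeR. At an unadjusted edgeR p under 0.05, 22 of 114 members passed in iaf-2 with the pairs summed, beside 1466 of all 8120 genes tested. The member count was thus near the background. Leaving out 1 library took iaf-1 from 45 to between 29 and 55, with the lowest count without iaf-1 replicate 2, and iaf-2 from 25 to between 14 and 39, with the lowest count without iaf-2 replicate 1.

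The acf libraries of series 112 shared the WT libraries that chose the range, so their values are set beside those of set-7 without a test of likeness. NCU02022 held 2.69, 3.49 and 2.47 CPM, NCU02071 1.01, 1.41 and 0.749 and NCU02061 5.43, 6.06 and 4.34. All 3 were below every WT library of that series. The triple mutant of series 112 had only some of the low values. NCU02022 held 21.7, 16.3 and 19.3 CPM, NCU02061 50.6, 37.0 and 44.1 and NCU01957 24.3, 35.7 and 22.8, each library above the highest WT library. NCU02071 was lower than WT there (1.96-fold, edgeR adjusted p = 0.00808), and so was NCU02051 (2.32-fold, adjusted p = 2.17e-06). Of the 8 members of the set-7 list at least 2-fold, 4 were called higher than WT and 2 lower. NCU02061 was 8.85-fold higher in the triple mutant than in acf (edgeR log2 fold change 3.15 ± 0.22 SE, adjusted p = 3.67e-08), although both had at most 2 reads of matA-1 over the group. Of 122 members, 43 were called in acf (27.2% of all genes) and 67 in the triple mutant (54.9%) against WT, and 64 in the triple mutant against acf (48.2%). In acf 13 were called at least 2-fold (8.92%), 9 lower (1.58%) and 4 higher (7.34%). Against acf the triple mutant had 36 members higher (25%) and 28 lower (23.2%), and at least 2-fold 15 higher (10.8%) and 6 lower (5.46%). The count in acf was 24 to 41 without 1 library, with the lowest value without acf replicate 2.

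**Figure D3:**
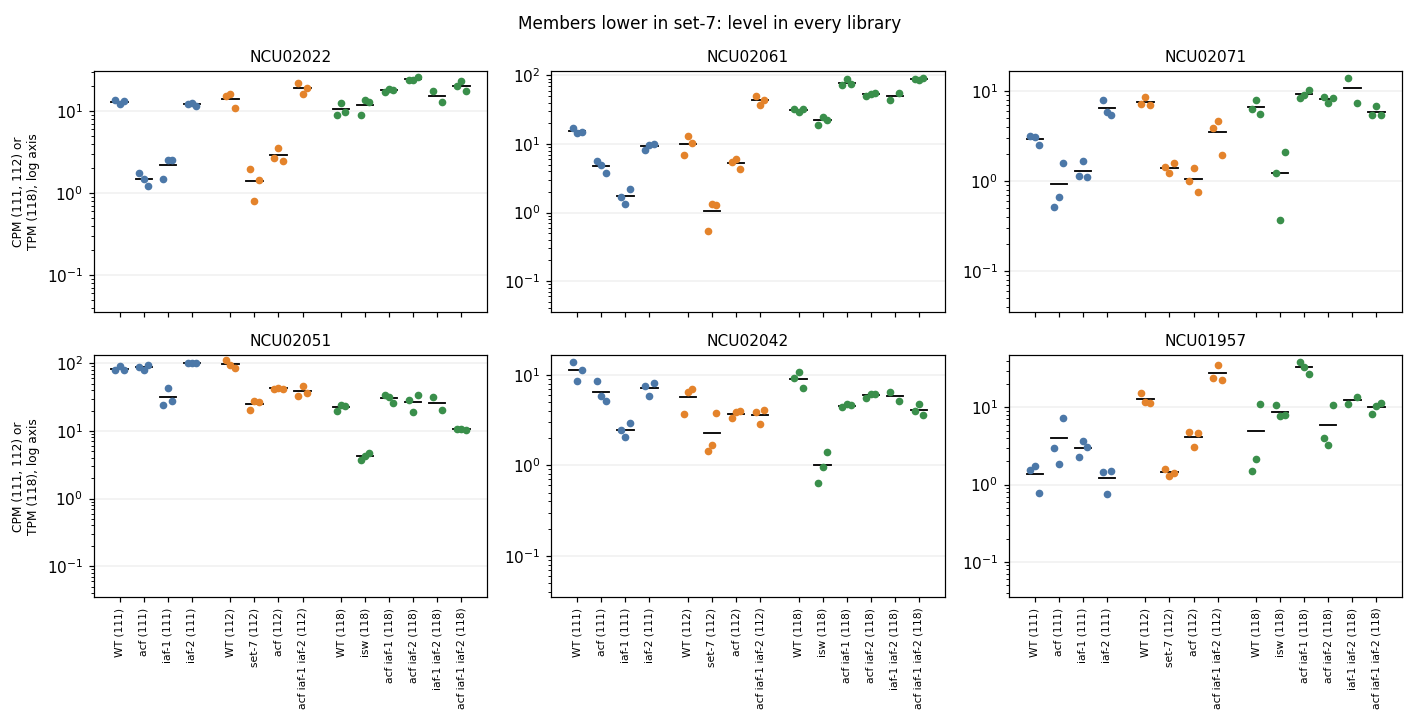
Level of 6 members of the set-7 list in each library (points) with group means (bars), on log axes, CPM for series 111 and 112 and TPM for series 118. NCU02022 is low in acf and iaf-1 of series 111 and in set-7 and acf of series 112, between 0.801 and 3.49 CPM, and overlaps the WT range in iaf-2 and isw and lies above it in both triple mutants.

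In series 118, which shares no library with the range, the same members were split. NCU02042 held 9.30, 10.8 and 7.13 TPM in WT and 0.639, 0.959 and 1.39 TPM in isw (5.05-fold lower, limma log2 fold change -2.34 ± 0.17 SE, adjusted p = 3.6e-09; -3.22 by edgeR on recovered reads). NCU02051 held 19.4, 24.1 and 23.1 TPM against 3.77, 4.29 and 4.66 TPM (4.42-fold lower, adjusted p = 3.56e-08), and NCU02071 6.36, 7.96 and 5.51 TPM against 1.24, 0.373 and 2.11 TPM (3.55-fold lower, adjusted p = 9.99e-06; -2.44 instead of -1.83 on the log2 scale by edgeR on recovered reads). In these 3 genes the isw libraries lay below all WT libraries. NCU02022 was not lower in isw: it held 8.96, 13.5 and 12.7 TPM against 9.01, 12.5 and 9.78 in WT, and it was 2.24-fold higher in acf iaf-2 (23.8, 23.6 and 26.0 TPM; limma adjusted p = 2.23e-05).

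The triple mutant and isw, both with at most 3 reads of matA-1 over the group, differed at these members. NCU02061 held 87.7, 86.1 and 90.4 TPM in the triple mutant and 19.1, 24.9 and 22.4 TPM in isw, beside 31.9, 29.4 and 32.8 in WT. It was therefore above the WT range in one and below it in the other (triple mutant against isw 3.87-fold, limma log2 fold change 1.95 ± 0.12 SE, adjusted p = 1.38e-08). NCU02071 was 3.24-fold higher in the triple mutant than in isw (adjusted p = 0.000513), and NCU02051 and NCU02042 were 2.22-fold and 2.57-fold higher (adjusted p = 0.000883 and 0.000167). Over the list 6 of 8 members were called higher and 0 lower, with a median of 0.96 on the log2 scale beside 0.01 over all genes. In this comparison 31 of 126 members were called (17.5% of all genes), and at least 2-fold 6 were higher (0.782%) and 5 lower (1.21%).

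NCU01957, the member next to the mating-type genes on its side, had its highest level of series 118 in acf iaf-1, the group with the most matA-1 reads. Its libraries there held 38.7, 32.9 and 27.5 TPM, against 1.49, 2.18 and 11.1 TPM in WT. The groups isw, acf iaf-2 and iaf-1 iaf-2, without matA-1 reads, lay between 3.28 and 13.8 TPM. WT, with 21 matA-1 reads, was thus not above them. The triple mutant, with 3 matA-1 reads, was 2.39-fold above WT (limma adjusted p = 0.0411). The rise of acf iaf-1 over WT was 7.36-fold (limma log2 fold change 2.88 ± 0.48 SE, adjusted p = 0.00035). It was 3.58 on the log2 scale without WT replicate 3, the library at 11.1 TPM. In the other series too the level went with matA-1 only in part. In series 112 set-7 and acf, with at most 2 matA-1 reads, were below the WT that chose the range. The log2 fold change in acf was -1.677 (edgeR fit over series 111 and 112, adjusted p = 0.000308). The triple mutant of series 112, with no matA-1 read, held more than its WT. WT of series 111, with the most matA-1 reads among WT groups, held 1.53, 1.76 and 0.777 CPM of NCU01957. There acf was higher than WT (1.908 in the same fit, adjusted p = 0.000823), and iaf-1 and iaf-2 were not called (edgeR adjusted p = 0.1 and 0.891).

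Against WT of series 118, 63 of 126 members were called in isw (48.3% of all genes), 37 in acf iaf-1 (31.6%), 25 in iaf-1 iaf-2 (21.5%), 27 in acf iaf-2 (24.7%) and 55 in the triple mutant (51.1%). Against acf iaf-1, which had matA-1 reads, 63 were called in isw (47.4%), 11 in acf iaf-2 (9.96%), 36 in iaf-1 iaf-2 (26.5%) and 47 in the triple mutant (39.4%). Triple mutant against acf iaf-2 gave 44 (34.6%), and 29 without acf iaf-2 replicate 2. With only the groups compared in the fit, the count of iaf-1 iaf-2 fell from 25 to 13 against WT and from 36 to 20 against acf iaf-1. At least 2-fold, acf iaf-2 against acf iaf-1 had 4 members higher (1.37% of all genes), NCU01972, NCU01968, NCU01969 and NCU01970, and 2 lower (0.921%), NCU01957 and NCU01995. NCU01972 held 64.7, 42.9 and 57.0 TPM in acf iaf-2 and 9.25, 10.2 and 9.32 TPM in acf iaf-1, beside 7.00, 13.1 and 10.6 TPM in WT, and its 5.21-fold difference between the double mutants was called (limma adjusted p = 2.17e-06).

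A further set of members was low in WT and higher in several mutants. NCU01976 and NCU02030 were each called at least 2-fold higher in 8 of the 11 comparisons with WT, which were all those with acf in the genotype, isw and iaf-1 iaf-2. NCU01976 held 3.33, 3.29 and 2.91 CPM in WT of series 112, 33.0, 31.1 and 30.9 in acf and 41.9, 47.3 and 51.5 in the triple mutant, but 3.18, 2.33 and 4.34 in set-7. The acf and triple libraries were about an order of magnitude above WT (10.2-fold and 16.1-fold, edgeR adjusted p = 3.52e-09 and 1.38e-10), and the set-7 libraries overlapped WT. In series 111 acf held 21.5, 19.9 and 17.1 CPM of NCU01976 against 7.39, 3.80 and 6.22 in WT, while iaf-1 held 2.81, 3.11 and 3.08.

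NCU02030 rose in the same groups. It held 4.49, 3.03 and 0.783 CPM in WT of series 112, 30.8, 35.5 and 30.3 in acf and 17.5, 17.0 and 16.1 in the triple mutant. In series 118 it stood at 26.6 TPM ± 2.19 in isw, 20.2 ± 1.29 in acf iaf-1 and 27.2 ± 1.71 in acf iaf-2 (SD, n = 3) against 2.77 ± 0.776 in WT, with iaf-1 iaf-2 in between at 11.5 and 10.8. It was lower than WT in iaf-1 of series 111 (3.02-fold, edgeR adjusted p = 0.0272), where it held 8 reads against 27.

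NCU02021 and NCU02023, the neighbours of NCU02022 on either side, were called higher than WT together with it in the triple mutants of series 112 and 118. In set-7 and acf of series 112, where NCU02022 was lower, neither neighbour was called, and in isw both neighbours were called higher while NCU02022 was not. NCU02021 held 0.679, 0.267 and 0.857 TPM in WT of series 118, 110, 161 and 159 TPM in isw and 39.8, 55.4 and 33.8 TPM in the triple mutant, while the double mutants stayed at or under 2.37 TPM. Its rise was 90-fold in isw and 27.3-fold in the triple mutant on the log2(TPM + 1) scale (limma adjusted p = 4.05e-13 and 2.54e-11), or 7.78 and 6.09 on the log2 scale by edgeR on recovered reads. In the triple mutant of series 112 it had 202 reads against 5 in WT (edgeR adjusted p = 2.43e-06). The pheromone gene mfa-1 moved in the same 3 groups, with means of 19200 CPM in isw, 7500 in the triple mutant of series 118 and 9970 in that of series 112, and at most 36.7 CPM elsewhere; its part in the level of NCU02021 was not tested.

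NCU02023 had 3 reads over the WT libraries of series 118 and 210 in isw, 170 in the triple mutant and 185 in iaf-1 iaf-2. The ratio to WT was 64.6 in isw (95% counting interval 21.8 to 316), 57.3 in the triple mutant (19.3 to 281) and 68.0 in iaf-1 iaf-2 (22.9 to 333). Its acf iaf-1 and acf iaf-2 libraries held 34 and 17 reads. The 2 iaf-1 iaf-2 libraries were far apart, at 6.22 and 1.88 TPM.

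NCU01943 had no read in WT of any series. Over the 2 libraries of iaf-1 iaf-2 it had 276 reads, at 28.3 and 73.1 TPM, at least 101-fold above WT over a floor of 3 reads per group. The triple mutant had 194 reads in series 112 (at least 46.5-fold above WT) and 40 in series 118 (at least 13.5-fold), and isw had 32 (at least 9.85-fold). No library of acf iaf-2 had a read. NCU01943 was called higher than WT in these 4 groups (adjusted p between 2.53e-09 and 3.93e-06, edgeR or limma). Without a WT read it passed the filters on low values only through mutant libraries, so these calls add nothing to the reads. The log2 fold change in iaf-1 iaf-2 was 4.87 or 6.21 with either library left out.

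gh76-1 (NCU02032) is named as a member of glycoside hydrolase family 76, enzymes that cut mannans. It held 0.128, 0.0843 and 0.224 CPM in WT of series 112 and 11.3, 12.8 and 8.19 CPM in the triple mutant, with 0.456, 0.734 and 0.449 CPM in acf. In series 118 WT held 0.301, 0.153 and 0.109 TPM, and gh76-1 was higher in all 5 mutant groups, lowest in acf iaf-1 (1.69, 2.94 and 1.87 TPM) and highest in the triple mutant (8.29, 9.88 and 9.11 TPM). No mutant library of series 118 overlapped WT (limma adjusted p between 1.26e-10 and 7.27e-06). The triple mutant was 2.20-fold above isw (limma adjusted p = 0.000695), and set-7 libraries did not exceed 0.31 CPM.

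**Figure D4:**
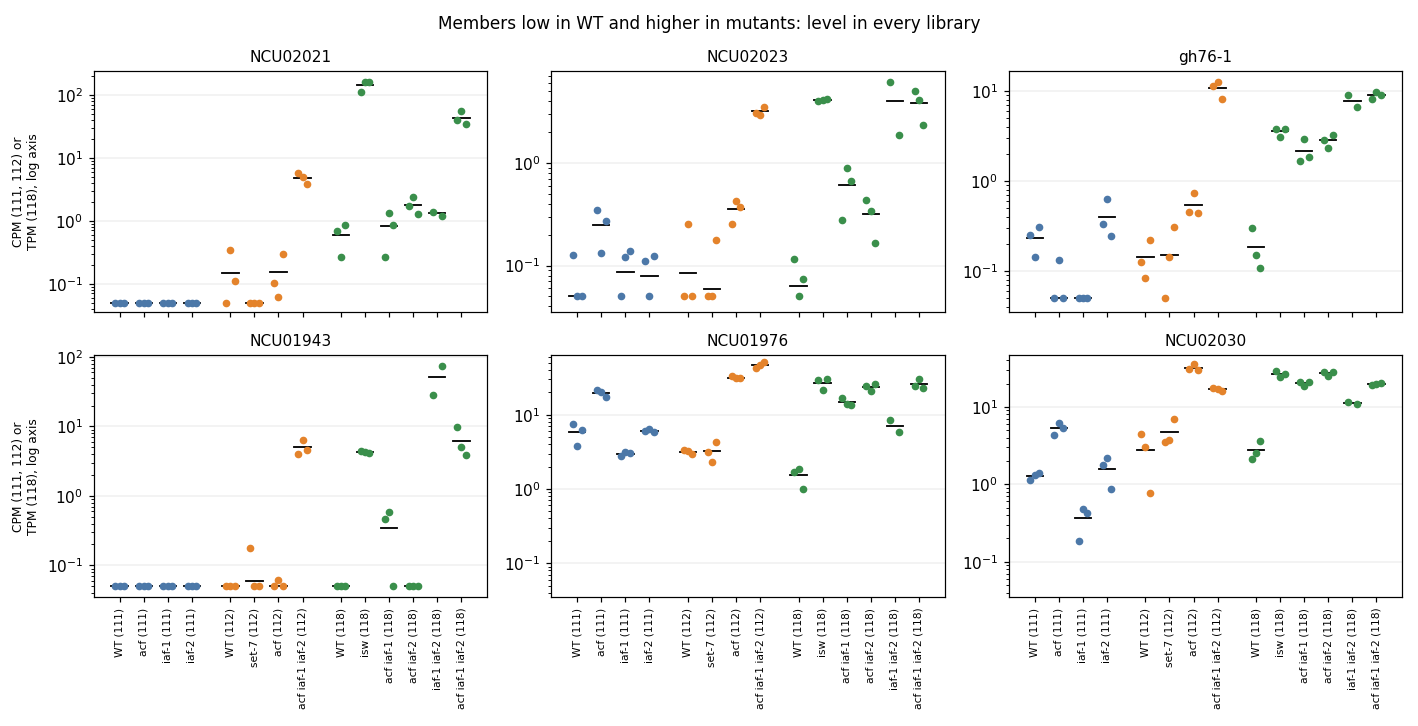
Level of 6 members that were low in WT in each library (points) with group means (bars), on log axes, CPM for series 111 and 112 and TPM for series 118; values under 0.05 are drawn at 0.05. NCU02021 is high in isw (110 to 161 TPM) and in the triple mutants, NCU01943 is highest in iaf-1 iaf-2 (28.3 and 73.1 TPM), and NCU01976 and NCU02030 rise in every group with acf in its label.

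Of the 20 members with a symbol 9 were called at least 2-fold in some of the 19 comparisons, where 55.0% of all genes tested were, and 11 in none, among these hsp70-2 (an Hsp70 chaperone), mdm12 (a part of the tether between mitochondria and endoplasmic reticulum), cys-11 (ATP sulfurylase), set-8 (a SET-domain gene), upr-1 (the catalytic subunit of DNA polymerase zeta) and tef-1. In set-7 against WT 2 of 20 were called lower, hsp70-2 and cys-11, and 1 higher, un-16. In acf of series 111, 8 of 19 were called at least 2-fold with edgeR, where 32.9% of all genes were.

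In that comparison ptk-2 rose most, from 135, 67.1 and 140 CPM in WT to 358, 357 and 425 CPM in acf (4.18-fold, edgeR adjusted p = 3.11e-06). leu-4, which encodes the first enzyme of leucine synthesis, held 112, 145 and 109 CPM in WT and was higher in acf (243, 246 and 304), iaf-1 (288, 339 and 257) and iaf-2 (219, 213 and 245). Every mutant library of leu-4 lay above every WT library of that series. mus-42, a gene of mutagen sensitivity, was lower in acf and iaf-1 of series 111, at 4.63 and 6.62 CPM against 16.3 in WT, and not in iaf-2 at 16.5. The log2 fold change was 1.50 for the developmental transcription factor gene ada-2 and -1.53 for cia30, which encodes an assembly factor of respiratory complex I.

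ada-2 was also higher in isw, at 174, 155 and 169 TPM, and in the triple mutant of series 118, at 126, 147 and 188 TPM, than in WT at 70.1, 62.8 and 61.3 TPM (log2 fold changes 1.35 ± 0.14 and 1.22 ± 0.14 SE). The 3 double mutants of ada-2 lay between 55.8 and 85.4 TPM. cia30 was lower in isw, with 58.4, 53.3 and 62.4 TPM against 110, 89.3 and 91.7 in WT, at a log2 fold change of -0.73.

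Genes for which all mutants of a series stood on 1 side of WT were counted last. In series 111, 15 of 114 members lay in every mutant library below every WT library (9.78% of all genes) and 8 above (6.21%). In series 112, whose set-7 libraries chose the range, 17 of 122 lay below (8.09%) and 1 above (4.34%). Only NCU01981 lay below in both, with 687 to 1070 CPM in WT and 460 to 639 in the mutants of series 111, and 415 to 422 against 326 to 412 in series 112. In set-7, acf and the triple mutant of series 112 NCU01981 was not called (edgeR adjusted p between 0.265 and 0.703), and no member lay above WT in both series. pex2, a peroxisome biogenesis gene, and eat-2 lay above WT in every mutant library of series 111 and below it in every mutant library of series 112. These places and counts rest on levels scaled to library totals, without the TMM factors of edgeR. With those factors the triple mutant of series 112 was near WT, with log2 fold changes of 0.048 for NCU01981, -0.009 for eat-2 and -0.077 for pex2. The place of these genes below WT there thus depends on the scaling.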

How the data were processed

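The authors deposited counts (whole reads for each gene) for series 111 and 112. For series 118 the authors deposited TPM. Tools named in the submitters' processing notes were HISAT2 2.1.0, featureCounts (Subread 1.6.2), SAMtools 1.9, FastQC, and Trim Galore 0.4.4 with cutadapt 1.14. The labels' protocols name a stranded mRNA library kit. Genome build, annotation and strand setting were not given in the sources used here. The RefSeq table of NC12 served for symbols and gene order only (10363 of 10397 identifiers matched), and no coordinates are printed. Of the 141 tags in the range 9 had no row. nup-9, whose older tag lies in the range, has a newer one and was not counted. No column of per-sample values lacked a sample. The other 53 of 94 samples were not analysed here.

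Counts were tested with edgeR 4.0.16 (quasi-likelihood, TMM, filterByExpr, robust) and TPM with limma 3.58.1 (trend, robust) on log2(TPM + 1) for genes that reached 1 TPM in 2 or more libraries, in R 4.3.3, with all groups of a series in the fit. The design had assumed counts throughout, and since series 118 held TPM the limma test was used there. Log2(TPM + 1) understates changes of low genes. TPM steps gave whole reads for 100% of 10397 genes within a tolerance of 0.001, which gave depth and an edgeR test as an alternative. Interactions between library series were fitted in addition, chosen after the data had been seen. Exact 95% intervals, and floors of 3 reads per group, take in no error but that of counting, because reads made by PCR are not independent molecules. Fits were tested on simulated data with known fold changes.

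The members and lists were chosen with earlier results of these data known. Named members were those following matA-1 in series 118, the 3 highest and 3 lowest called at least 2-fold per comparison (at least 5 CPM or TPM in the higher group), those with a symbol, and those at the limits of the range. NCU02040, NCU02058, NCU01981, NCU02023, NCU02031, NCU01995 and NCU14009 fall outside that rule and were named after their values were seen. The planned correlation of members with matA-1 over groups is not given, because matA-1 levels fell into separate clusters. Replicate numbers did not pair libraries: the correlation of deviations was above 0.1 in 3 of 18, 4 of 18 and 11 of 40 same-numbered pairs. Alternatives were median-ratio scaling, no filter, DESeq2 1.42.0, only the groups compared, a replicate block, a pseudocount of 0.1 TPM, edgeR on recovered reads, close pairs summed and each library left out.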

Additional observations from a re-analysis of the deposited data

Results flagged for a closer look

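The effect of the acf label differed between series 111 and 112, tested as an interaction in 1 edgeR fit over both series, for 67 of 122 members (50.8% of all genes), with the close library pairs kept apart. For 12 members the 2 effects were called in opposite directions, as for 719 of all 8649 genes. Of these, 10 were higher than WT in series 111 and lower in series 112. The log2 difference, series 111 minus series 112, was 3.585 for NCU01957, 2.717 for NCU02057, 2.343 for NCU01982, 1.889 for pex2, 1.63 for NCU02051, 1.499 for NCU02059, 1.329 for NCU01984, 1.319 for NCU01994, 0.878 for NCU02020 and 0.637 for NCU01992. In the other direction it was -2.67 for NCU01970 and -2.108 for NCU01969, which overlap each other in NC12. The adjusted p of the difference lay between 1.04e-08 and 0.000661 over the 12. NCU02051 was called in series 111 only in this joint fit (adjusted p = 0.0444, against 0.0903 within series 111).

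The triple mutant differed between series 112 and 118 for 23 of 124 members (26.3% of all genes), by the same kind of edgeR fit on the counts of series 112 and the recovered reads of series 118. For 3 members, and for 300 of all 9080 genes, the 2 effects were called in opposite directions. The log2 difference, series 112 minus series 118, was -1.2 for NCU02068, 0.957 for acw-11, named as a cell wall protein gene, and 1.089 for NCU02005 (adjusted p = 0.000224, 7.49e-06 and 0.000262).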

How the results depend on the processing

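Over the counts of called members per comparison, 198 alternatives stayed within 1.5 times the reported count and 24 did not; over named members 1077 alternatives kept direction and call, 23 kept direction and lost the call, and none reversed. With only the groups compared in the fit, members called were 9 in set-7 against WT (8 lower, 1 higher, against 18 and 8), 14 in iaf-2 against WT, 31 in iaf-1 against iaf-2, 13 in iaf-1 iaf-2 against WT and 20 in iaf-1 iaf-2 against acf iaf-1. With close pairs summed they were 11 in iaf-1, 0 in iaf-2 and 2 in iaf-1 against iaf-2; fewer libraries enter that fit. Leaving out 1 library gave 13 (without WT replicate 2) to 27 in set-7, 24 to 41 in acf of series 112, 29 to 55 in iaf-1, 14 to 39 in iaf-2, 6 to 20 in iaf-1 against iaf-2 and 29 to 39 in the triple mutant against acf iaf-2. The replicate block gave 22 members in set-7, 76 in acf of series 111, 17 in iaf-1 against iaf-2 and 62 in isw, and moved no count by over 1.5 times. For the other changes the cause was not tested. Of the members described, NCU01968 in set-7 lost its call in 7 alternatives, and in series 111 NCU02005, NCU01989 and NCU01961 in iaf-2 lost theirs with pairs summed (adjusted p = 0.212, 0.155 and 0.13), as NCU01989 did in iaf-1 (0.119) and NCU02071 and NCU02005 in iaf-1 against iaf-2 (0.147 and 0.369); NCU02005 there also lost its call without 1 library in 5 fits. Members under about 1 CPM rest on few reads, most of all in series 111, which is the shallowest.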
